A study of Mus musculus with 4 samples.

Results

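The 13 protein genes of the mouse mitochondrial genome were followed in 4 liver RNA-seq libraries, as the rows that the deposited count table places on the mitochondrial chromosome. They were 13 of 35275 rows, and all 13 had the gene type protein coding. GENCODE M21 annotates 37 genes there on GRCm38, namely 13 protein genes, 2 ribosomal RNA genes and 22 transfer RNA genes; the ribosomal and transfer RNA genes were not analysed here, since the table held 0 rows for them. The listed start and end of all 13 rows equal those of GENCODE M21.

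Female mice carrying the amyloidogenic Apoa2c allele formed the groups VS (vehicle, sedentary), VI (vehicle, interval training on a treadmill, IT), FS (AApoAII fibrils, sedentary) and FI (AApoAII fibrils, IT). Fibrils had been injected to induce AApoAII amyloidosis, in which apolipoprotein A-II is deposited as amyloid, whereas vehicle mice received saline. All mice were 26 weeks old at the end of the 16 weeks, and every group shared the Apoa2c genotype. The labels give the strain as AKR/J, whereas the methods of the study describe R1.P1-Apoa2c mice on a SAMR1 background. Livers of 4 mice per group went into 1 pool, so that 16 mice gave 4 libraries, and no value below carries an error between mice. Runs of 4 values are given in the order VS, VI, FS, FI. The contrasts are called the vehicle pair (VI versus VS) and the fibril pair (FI versus FS) for training, and the sedentary pair (FS versus VS) and the trained pair (FI versus VI) for fibrils. Intervals are at 95% and cover counting error only. In such bulk libraries fewer mitochondria, fewer cells of a type and less RNA per cell cannot be told apart.

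The mitochondrial genome encodes subunits of the respiratory chain that makes ATP in the inner membrane, and the hepatocyte is rich in mitochondria. Both of its strands are transcribed as long precursors from which transfer RNAs are cut out, which releases the messenger RNAs lying between them. A total of 7 members encode subunits of NADH dehydrogenase (complex I), mt-Cytb encodes cytochrome b of complex III, mt-Co1, mt-Co2 and mt-Co3 encode the catalytic core of cytochrome c oxidase (complex IV), and mt-Atp6 and mt-Atp8 encode subunits of ATP synthase (complex V). All other subunits come from nuclear genes, and complex II is wholly nuclear.

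The genes lie close together, and some share bases, which bears on how their reads could be counted. On chrMT:7927-7969 mt-Atp8 and mt-Atp6 overlap by 43 bases, and mt-Nd4l and mt-Nd4 overlap by 7 bases, each pair on the same strand. mt-Nd6 is the only one of the 13 annotated on the minus strand, and its end overlaps that of mt-Nd5 by 14 bases. The last 30 bases of each of these 2 genes, read 5′ to 3′ on its own strand from the GENCODE M21 transcripts on GRCm38, show the overlap in capitals.
mt-Nd5: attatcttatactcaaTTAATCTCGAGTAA
mt-Nd6: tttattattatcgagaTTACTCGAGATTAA
The capitals of one line are the reverse complement of those of the other. The sources used here do not say whether reads were counted by strand, so reads from mt-Nd6 and from RNA of the opposite strand cannot be told apart in these counts. Further, 3 members (mt-Co3, mt-Nd4 and mt-Cytb) end in a codon of which the genome holds only the first base, shown as the capital in their last 30 bases. Polyadenylation is known to complete such stop codons in mitochondrial messenger RNA.
mt-Co3: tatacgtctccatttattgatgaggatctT
mt-Nd4: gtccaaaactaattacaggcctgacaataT
mt-Cytb: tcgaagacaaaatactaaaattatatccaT

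Some members have near-identical pseudogenes in the nucleus. In GRCm38, GENCODE M21 annotates 7 of them on the minus strand of chr1:24611535-24616197, which match members between the end of mt-Co1 and the start of mt-Nd4 (chrMT:6390-11042). Only annotated transcripts were aligned, so the bases between the pseudogenes were not compared. By sequence, 5 members (mt-Co2, mt-Atp6, mt-Co3, mt-Nd3 and mt-Nd4l) had a copy over at least 90% of their length at 99% identity or more. A part of mt-Co1 and of mt-Nd4 matched a pseudogene, and 5 members (mt-Nd1, mt-Nd2, mt-Nd5, mt-Nd6 and mt-Cytb) had no copy at that identity. For mt-Atp8, which lies inside the same span, an annotated pseudogene matched the 43 bases it shares with mt-Atp6 and no others. The copied 681 bases of mt-Co2 were identical in the pseudogene Gm28661, the 678 of mt-Atp6 in Gm10925, the 783 of mt-Co3 in Gm28437 and the 294 of mt-Nd4l in Gm10222. Of 483 aligned bases of mt-Co1, 1 differed from Gm29216, and of 345 aligned bases of mt-Nd3, 1 differed from Gm28438. These are the differences A1066T for mt-Co1 and T3C for mt-Nd3, counted from the first base of the mitochondrial gene, and the differing base is in capitals in the lines that follow.
mt-Co1: ggaAttgttttatccaac
Gm29216: ggaTttgttttatccaac
mt-Nd3: atTaacctgtacactgt
Gm28438: atCaacctgtacactgt

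The level of a member, as TMM-scaled CPM (counts scaled to a library of 1000000) per kb of gene length, followed this map. mt-Co1 was the most abundant, at 8912, 9132, 8009 and 8181. mt-Nd1 (chrMT:2751-3707) stood at 4925, 5257, 4705 and 5056, and mt-Cytb (chrMT:14145-15288) at 4041, 4768, 4407 and 4091. The mean over the 4 libraries was 3582 for mt-Nd2, 1860 for mt-Nd4, 1101 for mt-Nd6 and 724 for mt-Nd5. In every library these 7 genes kept the order mt-Co1, mt-Nd1, mt-Cytb, mt-Nd2, mt-Nd4, mt-Nd6 and mt-Nd5. The lowest value among them was 648.5 CPM per kb, for mt-Nd5 in VS. mt-Co1 and mt-Nd4 were divided by their whole length, of which 483 of 1545 and 876 of 1378 bases matched a pseudogene. Their levels per kb, and so their places in this order, are uncertain. By contrast, the 5 members with a whole near-identical copy had means of 58.7 for mt-Co2, 54.8 for mt-Co3, 45.8 for mt-Atp6, 31.4 for mt-Nd3 and 4.85 for mt-Nd4l. All of them lie between mt-Co1 and mt-Nd4 on the genome, which were at or above 1809 CPM per kb in every library.

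**Figure D1:**
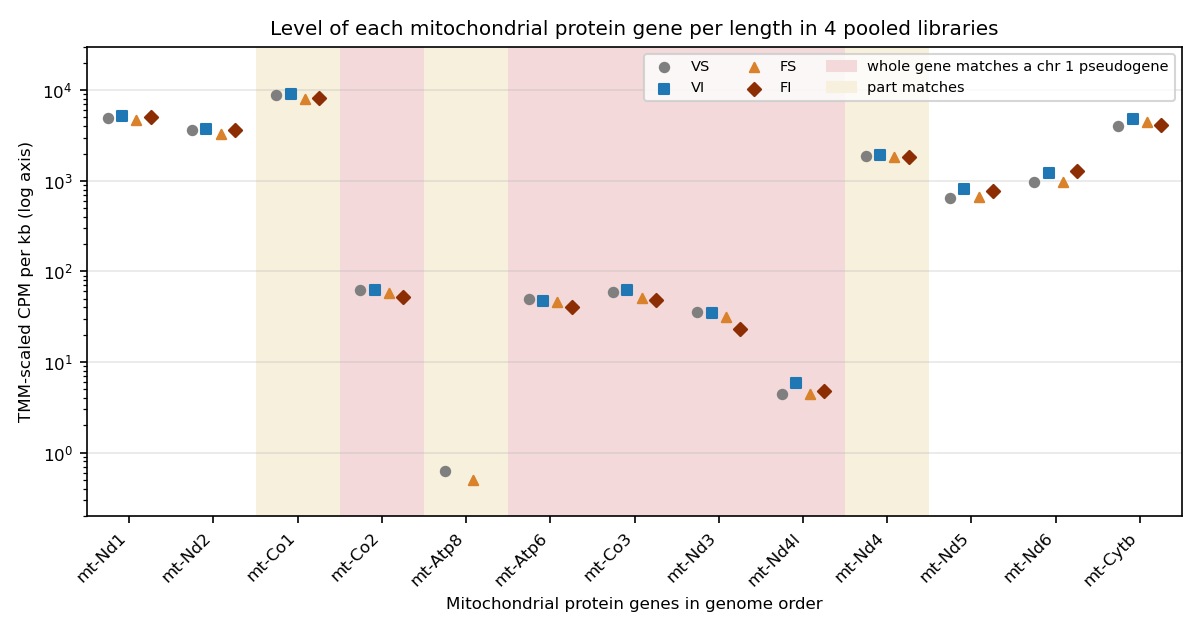
TMM-scaled CPM per kb (log axis) of the 13 mitochondrial protein genes in genome order, 1 point per pooled library, with shading for genes that match an annotated pseudogene on chromosome 1 over all or part of their length. The 5 genes with a whole copy lie between 4.42 and 62.8, and mt-Atp8 has no point in VI and FI, where its count was 0.

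mt-Atp8 was barely counted. It had 3, 0, 3 and 0 counts. The upper limit of the exact interval was 0.1514 CPM in VI and 0.1525 in FI, where the count was 0. No ratio was formed for it, and it was the single member of the 13 that did not reach 1 CPM in any library. mt-Atp6, which overlaps it, had 791, 786, 929 and 667 counts.

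For the 5 genes with a whole copy, the gene and its pseudogene received counts of the same order. mt-Co3 had 1092, 1181, 1164 and 911 counts, and Gm28437 had 1053, 1106, 1202 and 954. For mt-Co2 they were 1015, 1036, 1165 and 861, beside 1205, 1246, 1400 and 1032 for Gm28661. The pairs farther apart were mt-Atp6, whose 791, 786, 929 and 667 counts stood beside 1220, 1238, 1482 and 976 for Gm10925, and mt-Nd3, whose 293, 297, 326 and 196 stood beside 418, 469, 571 and 277 for Gm28438. Over the 5 genes and 4 libraries the pseudogene held between 46.9% and 63.7% of the counts of the pair. For mt-Nd4, of which 876 bases are copied, Gm28439 held 0.375% to 0.405%, with 228, 258, 282 and 245 counts. For mt-Co1, Gm29216 held 0.388% to 0.751%. The counts of mt-Nd4 and mt-Co1 include bases without a copy, so these shares cannot be compared with those of the 5 genes. The remaining nuclear copies with at least 1 CPM in a library were on chromosome 2, at 97.6% identity to mt-Co1 (Gm13340), 95.9% to mt-Co2 (Gm13341) and 96.7% to a part of mt-Nd2 (Gm13339). Their counts reached 194, 57 and 32 at most. The sources used here do not say how reads that match more than 1 place were counted. The levels and ratios of the 5 genes with a whole copy, and of mt-Atp8, are therefore uncertain. The same holds for the levels per kb of mt-Co1 and mt-Nd4, which were divided by the whole gene length.

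**Figure D2:**
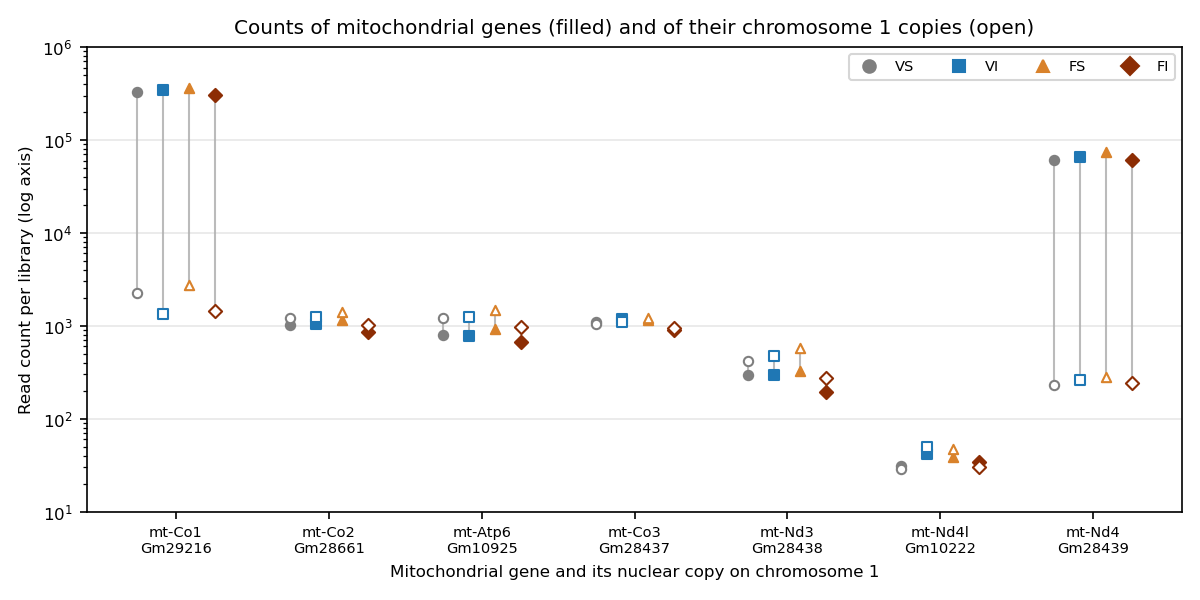
Read count per library (log axis) of 7 mitochondrial genes (filled) and of their chromosome 1 pseudogenes (open), joined by a line for each pooled library. For the 5 genes with a whole copy the pseudogene holds 46.9% to 63.7% of the counts of the pair. For mt-Co1 and mt-Nd4 it holds below 1%, but their counts include bases without a copy, so the shares are not comparable.

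The mitochondrial genes together took 3.15%, 3.32%, 3.04% and 2.99% of all counts. Total counts were between 23442935 and 28814802 per library, so the interval of each share reached no further than 0.01 percentage points to either side. mt-Co1 alone took 44.0%, 42.2%, 41.8% and 41.3% of the mitochondrial counts. mt-Cytb took 14.8%, 16.3%, 17.02% and 15.3%, lowest in VS and highest in FS. mt-Nd6 took 1.60% in VS and 1.69% in FS, below 1.87% in VI and 2.15% in FI. mt-Nd5 was arranged likewise, with 3.78% and 4.09% in the sedentary libraries below 4.39% and 4.64% in the trained ones. The 5 genes with a whole copy made up 0.436%, 0.410%, 0.414% and 0.360%.

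**Figure D3:**
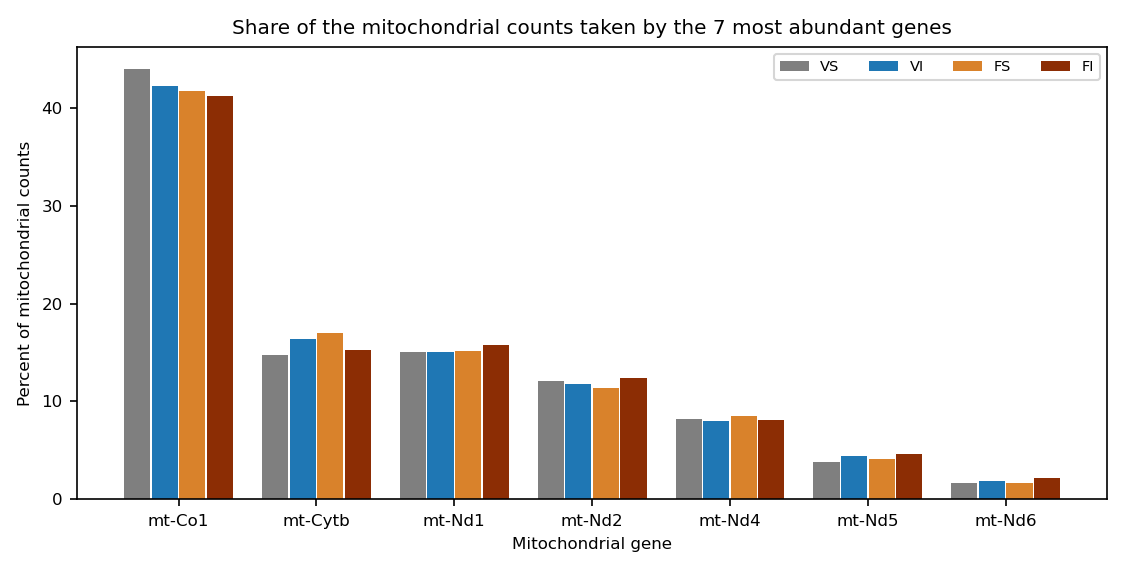
Percent of the mitochondrial counts of each pooled library (bars, from 0) taken by the 7 most abundant mitochondrial genes. mt-Co1 takes 41.3% to 44.0%, and mt-Nd5 and mt-Nd6 are higher in both trained libraries than in both sedentary ones.

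All 7 abundant members were higher in the trained than in the sedentary library of the vehicle pair, and 5 of these 7 were higher in that of the fibril pair. Given as log2 ratios of TMM-scaled CPM, the 12 members other than mt-Atp8 had a median of 0.07 in the vehicle pair, with 9 higher and 3 lower, and of 0.01 in the fibril pair, with 6 higher and 6 lower. Over the 5 members without a near-identical copy the medians were 0.24 and 0.17, with 5 and 4 of the 5 higher. The median of 0.01 turned to −0.06 when counts were scaled by library totals. Both contrasts had a median of 0.00 over the 12180 genes that reached 1 CPM in a library or more. Of these genes, 49.3% had ratios below 0 in the vehicle pair and 49.8% in the fibril pair. None of the 12 was beyond 2-fold in either contrast, against 3.44% of the 12180 genes in the vehicle pair and 4.28% in the fibril pair. Counting intervals left out 0 for 7 of 12 members in the vehicle pair, all higher, where 44.0% of all genes did so. In the fibril pair they left out 0 for 9 of 12, with 5 higher and 4 lower, against 48.2% of all genes. With counts as deep as these an interval without 0 is common: among 1227 nuclear genes with a mean of at least 100 CPM, 79.1% and 82.6% had one. The same genes spanned −0.45 to 0.56 and −0.38 to 0.61 from the 5th to the 95th percentile, and all 7 abundant members lay within these limits. The medians of these 1227 genes were −0.01 and 0.06, and 50.8% and 38.9% of them had ratios below 0.

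mt-Nd6, the minus-strand gene for a membrane subunit of complex I, was the abundant member highest above its sedentary level in both pairs. Its level was 966, 1205, 966 and 1267 CPM per kb, so both trained libraries lay above both sedentary ones. The log2 ratio was 0.32 (interval 0.28 to 0.35) in the vehicle pair and 0.39 (0.36 to 0.42) in the fibril pair. mt-Nd5, which encodes the large proton-pumping subunit on the opposite strand, stood at 649 and 665 in VS and FS and at 804 and 779 in VI and FI. Its log2 ratios were 0.31 (0.29 to 0.33) and 0.23 (0.21 to 0.25). As shares of the mitochondrial counts, which take out the scale common to all members, the log2 ratios were 0.22 and 0.34 for mt-Nd6 and 0.21 and 0.18 for mt-Nd5. The same 2 genes are the neighbours whose ends overlap in the lines printed above. mt-Nd1 and mt-Nd2, also of complex I, were higher by 0.09 and 0.05 in the vehicle pair, and by 0.10 and 0.17 in the fibril pair. mt-Nd4 differed by 0.06 (0.05 to 0.08) in vehicle livers and by −0.01 (−0.02 to 0.01) in fibril livers, and mt-Co1 by 0.04 and 0.03, of which the second was −0.04 when scaled by library totals.

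Among the genes with a whole copy, none had an interval without 0 in the vehicle pair. mt-Nd3, a small complex I subunit, stood at 35.7, 35.0, 31.7 and 23.3 CPM per kb, lowest in FI. Its log2 ratio in the fibril pair was −0.45 (−0.71 to −0.19), and its pseudogene Gm28438, with 571 counts in FS and 277 in FI, was at −0.76 (−0.97 to −0.55). mt-Co2 and mt-Atp6 were at −0.15 (−0.28 to −0.02) and −0.19 (−0.34 to −0.05), beside −0.15 for Gm28661 and −0.32 for Gm10925. Of the 7 pseudogenes on chromosome 1, Gm29216 alone was lower in the trained library of both pairs with intervals below 0. It had 2241, 1338, 2763 and 1435 counts, which is a log2 ratio of −0.79 (−0.89 to −0.69) and −0.66 (−0.75 to −0.56). mt-Co1, from which it differs at A1066T within the aligned part, was at 0.04 and 0.03 in the same contrasts.

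**Figure D4:**
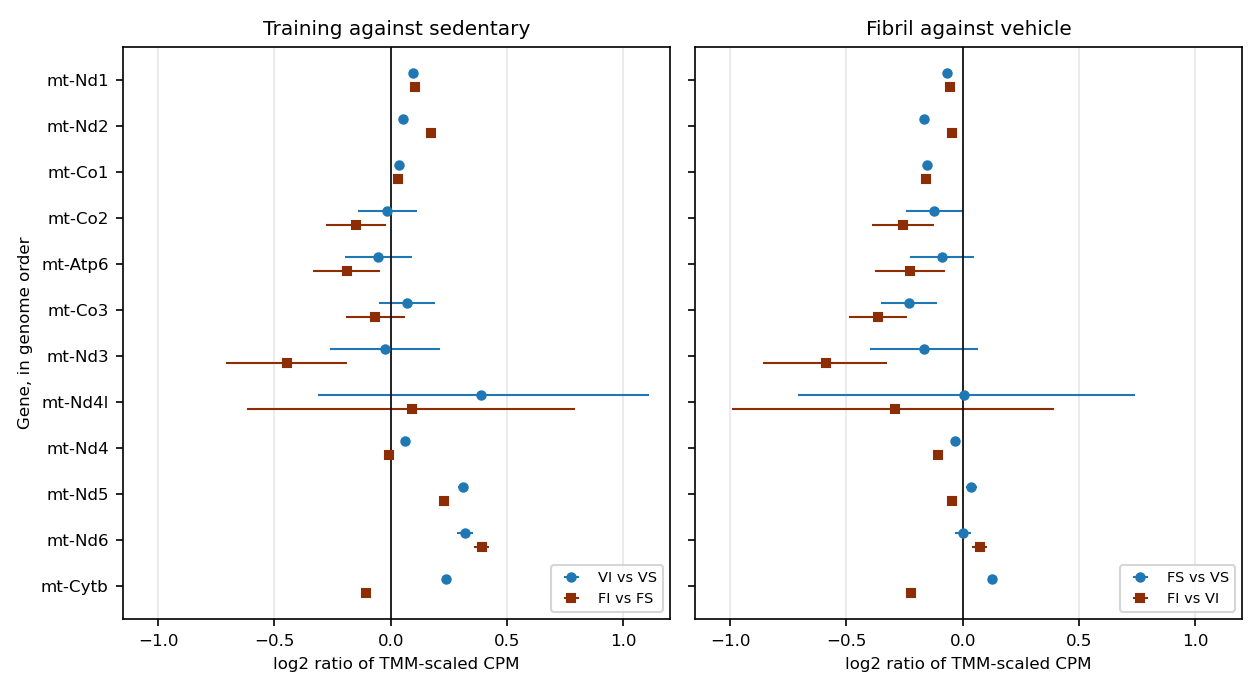
Log2 ratios of TMM-scaled CPM for the 12 mitochondrial genes with more than 3 counts, with exact counting intervals at 95% (lines), for training (left) and fibrils (right). mt-Nd5 and mt-Nd6 lie to the right of 0 in both training contrasts, and mt-Cytb lies on opposite sides of 0 within each panel.

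In the contrasts of fibrils with vehicle, most members had ratios below 0, as did most nuclear genes with a mean of 100 CPM or more. Members with a whole copy, whose counts are uncertain, had the lower medians. In the sedentary pair the median log2 ratio of the 12 members was −0.08, with 3 higher, 8 lower and mt-Nd6 at 0.00. In the trained pair it was −0.19, with 11 lower and only mt-Nd6 higher, by 0.07 (0.04 to 0.10). Over the 5 members without a near-identical copy the medians were 0.00 and −0.05, and over the 5 with a whole copy −0.12 and −0.29. These contrasts share libraries with the training contrasts and are not independent of them. Over all 12180 genes the medians were 0.02 and 0.01, and over the 1227 nuclear genes with a mean of 100 CPM or more −0.17 and −0.10. Ratios were below 0 for 48.0% and 48.7% of all genes and for 68.5% and 64.9% of the 1227. None of the members was beyond 2-fold, against 5.8% of all genes in the sedentary pair and 4.54% in the trained pair. Intervals left out 0 for 8 of 12 members in the first, 2 higher and 6 lower, and for 11 of 12 in the second, 1 higher and 10 lower, where 52.9% and 46.9% of all genes and 90.1% and 86.2% of those 1227 genes did so. Of the genes without a near-identical copy, mt-Nd2 was at −0.17 (−0.18 to −0.15) in the sedentary pair and at −0.05 (−0.06 to −0.03) in the trained pair. mt-Nd1 was at −0.07 and −0.06. mt-Co1 was lower by nearly the same amount in both, at −0.15 (−0.16 to −0.15) and −0.16 (−0.17 to −0.15). mt-Co3, with a whole copy, was at −0.23 (−0.35 to −0.11) and −0.36 (−0.49 to −0.24). mt-Nd3 reached −0.59 (−0.86 to −0.32) in the trained pair, the ratio farthest from 0 among the 12 members in the 4 contrasts.

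mt-Cytb, the one mitochondrial subunit of complex III, departed from the other abundant members. Its levels of 4041, 4768, 4407 and 4091 CPM per kb were low in VS and FI and high in VI and FS. Training therefore came with a log2 ratio of 0.24 (0.23 to 0.25) in vehicle livers and of −0.11 (−0.12 to −0.10) in fibril livers. The difference of both training ratios, fibril pair minus vehicle pair, was −0.35 (−0.36 to −0.33) for mt-Cytb. For the other 6 abundant members it lay between −0.08 for mt-Nd5 and 0.12 for mt-Nd2. mt-Nd3, at low counts, had −0.42 (−0.77 to −0.07). With 1 pool per group these differences have no test.

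In the additive model of fibrils and training across all 4 libraries, no mitochondrial gene passed. The edgeR quasi-likelihood test, with Benjamini-Hochberg adjustment over 11760 genes and 1 residual degree of freedom, called 157 genes for training (1.34%) and 540 for fibrils (4.59%), and 0 of the 12 members tested for either. At an unadjusted p under 0.05 there was 1 member for training, mt-Nd6, and 1 for fibrils, mt-Co3. Of all 11760 genes, 1710 for training and 2482 for fibrils were under that limit. For training, mt-Nd6 had a log2 change of 0.36 (SE 0.12, adjusted p = 0.257 by edgeR) and mt-Nd5 one of 0.27 (SE 0.13, adjusted p = 0.408 by edgeR). For fibrils, mt-Co3 had −0.30 (SE 0.11, adjusted p = 0.185 by edgeR). DESeq2 and limma-voom in the same design also called 0 members for each factor. Of all 11760 genes, DESeq2 called 182 for training and 470 for fibrils, and limma-voom 228 and 688. DESeq2 had 1 member for training and 0 for fibrils at an unadjusted p under 0.05, and limma-voom had 1 for each. Over all genes these were 761 and 1356 with DESeq2, and 1772 and 2558 with limma-voom.

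Nuclear genes that serve the mitochondrial genome were set beside these values, in lists matched by symbol. None of the 36 measured genes of mitochondrial RNA processing, 22 transfer RNA synthetases, 13 regulators of mitochondrial biogenesis or 13 translation factors was called for either factor by edgeR, where 1.34% and 4.59% of all genes were, and none of them was beyond 2-fold in any contrast. Among them, Ppargc1a, the coactivator known as a regulator of mitochondrial biogenesis, stood at 11.0, 19.9, 17.6 and 25.6 CPM. Both trained libraries were above the sedentary library of the same injection, and the log2 change with training was 0.70 (adjusted p = 0.0717 by edgeR). The same edgeR test called it for training with DESeq2 size factors (adjusted p = 0.0379) and, without a filter on low counts, for both training (adjusted p = 0.000396) and fibrils (adjusted p = 0.0141). Without that filter, 740 genes were called for training and 1519 for fibrils. For training, edgeR did not call it with total counts (adjusted p = 0.0572) or when not robust (adjusted p = 0.0738). DESeq2 (adjusted p = 0.14) and limma-voom (adjusted p = 0.0541) did not call it either. Esrra, a nuclear receptor that works with it, stood at 52.0, 65.5, 40.6 and 58.7 CPM, and Ppargc1b at 5.51, 3.69, 4.00 and 6.33, each with an adjusted p above that of Ppargc1a. The leucyl-tRNA synthetase Lars2 was at 431 CPM in VS and between 222 and 271 in the other libraries.

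Of 21 measured genes for mitochondrial transcription, nucleoid and DNA replication, 1 rose with training, against 1.34% of all genes called, and 0 were called for fibrils, against 4.59%. It was Slc25a33, which encodes a carrier of pyrimidine nucleotides into mitochondria, at 27.1, 43.1, 25.2 and 52.95 CPM. Its log2 change with training was 0.87 (SE 0.13, adjusted p = 0.0316 by edgeR), and its log2 ratio was 0.67 in the vehicle pair and 1.07 in the fibril pair. Polg2, a subunit of the mitochondrial DNA polymerase, and Tfb1m, a methyltransferase of mitochondrial ribosomal RNA, were the other 2 named by the rule, at 3.69 to 6.24 and 3.84 to 5.62 CPM. Their adjusted p values for training were 0.599 and 0.768 by edgeR. The list also held Mterfd3, chosen after its values were seen, at 1.78, 0.575, 1.83 and 1.16 CPM, with a log2 ratio of −1.60 in the vehicle pair and an adjusted p of 0.262 for training by edgeR.

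Most nuclear subunits of the same complexes had ratios below 0 for fibrils, and in the sedentary pair their medians lay below those of their mitochondrial partners, without a test of that difference. Of 61 nuclear subunit genes of oxidative phosphorylation, 59 had a lower level in FS than in VS and 61 a lower level in FI than in VI, with median log2 ratios of −0.30 and −0.23. Ratios were below 0 for 48.0% and 48.7% of all genes, and for 68.5% and 64.9% of those 1227 nuclear genes. The counts of 59 and 61 were the same under 4 other scalings. In complex I the 24 nuclear genes had medians of −0.29 and −0.24 and the 7 mitochondrial genes −0.03 and −0.06. In complex IV the 10 nuclear genes had −0.32 and −0.23 and the 3 mitochondrial genes −0.15 and −0.26. In complex III the 7 nuclear genes were at −0.36 and −0.25, beside 0.12 and −0.22 for mt-Cytb. In complex V the 15 nuclear genes were at −0.297 and −0.265, beside −0.09 and −0.23 for mt-Atp6. The mitochondrial values include mt-Nd3 and mt-Nd4l in complex I, mt-Co2 and mt-Co3 in complex IV and mt-Atp6 in complex V. These have a whole copy, and their ratios are uncertain. Of the 61, only Ndufb8, an accessory subunit of complex I, was called, where 4.59% of all genes were, with a log2 change of −0.54 with fibrils (adjusted p = 0.0448 by edgeR), which DESeq2 did not call (adjusted p = 0.0927 by DESeq2). The 14 other genes of mitochondrial content gave medians of −0.16 and −0.12, with 0 called.

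**Figure D5:**
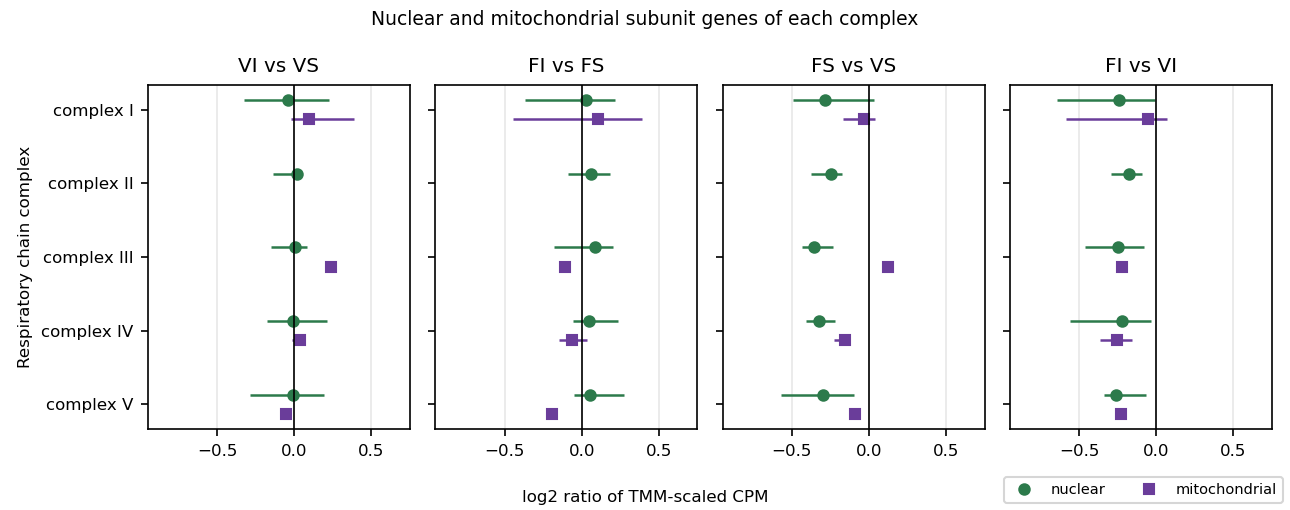
Median log2 ratio (points) and range (lines) of nuclear and mitochondrial subunit genes of complexes I to V in 4 contrasts of pooled libraries. In FS versus VS the nuclear medians lie between −0.36 and −0.25, and the mitochondrial ones between −0.15 and 0.12. Complexes III and V hold 1 mitochondrial gene each, and those of complexes I, IV and V include genes with a whole copy, whose ratios are uncertain.

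Other cell types differed between the libraries, and their part in these values was not tested. The 12 hepatocyte markers summed to between 170200 and 189200 CPM, with 0 of 12 at a count of 0 in any library. Alb alone made up 119900 to 135800 CPM of these sums. The 3 named by the rule varied. Tat was at 938, 2018, 3226 and 5278 CPM and Ass1 at 1194, 2427, 2060 and 3130. Cyp2e1 was at 11180, 9742, 6011 and 8798 CPM. Of the 12, edgeR called only Tat, higher with training and with fibrils, where 1.34% and 4.59% of all genes were called. The 18 skeletal muscle markers, of a tissue that is itself rich in mitochondria, summed to 88.0, 12.97, 2.61 and 3.35 CPM, with 1, 2, 5 and 11 of them at a count of 0. Acta1 was at 19.3 CPM in VS and at 0 in FI. Of the 14 muscle markers with at least 1 CPM in a library, 13 were beyond 2-fold lower in each of the vehicle, sedentary and trained pairs. Over all genes, 3.44%, 5.8% and 4.54% were beyond 2-fold in either direction. Each of the 14 reached 1 CPM in VS, so the filter itself favoured ratios below 0 against VS. In the trained pair some of these ratios rest on levels near 0, as for Myh4 at 0.041 CPM in VI and 0 in FI. Only the fibril pair joins libraries with like sums of these markers. The 8 Kupffer cell markers summed to 293, 367, 426 and 423 CPM, with each of the 8 higher in FS than in VS and in FI than in VI. Sums of 8 erythroid markers were between 253 and 361 CPM, of 6 adipose markers between 8.47 and 10.9, and of 11 neutrophil and lymphocyte markers between 7.76 and 14.4.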

How the data were processed

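Liver tissue was pooled by group by the authors (4 mice each), and 1 library per pool was sequenced. The submitters' processing notes name fastp 0.23.2, STAR 2.5, HTSeq 0.6.1 and mm10; options and strand setting are not stated there. The authors deposited raw read counts per gene, and FPKM that equal count divided by gene length and library total (ratio of 1 to the recomputed value). Genes were joined by Ensembl identifier.

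Counts were scaled by TMM (edgeR 4.0.16, R 4.3.3; factors 0.9754 to 1.025). Log2 ratios used a prior of 0.5 counts and exact (Clopper-Pearson) intervals at 95%. An additive model of fibrils and training was fitted by edgeR's robust quasi-likelihood test to genes that reached 1 CPM in 2 or more libraries, where the interaction leaves 1 residual degree of freedom. It was tested on simulated data in which changes with training were the same in both pairs. Genes with an interaction were thus not covered by that test. DESeq2 1.42.0 and limma 3.58.1 served as alternatives.

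Nuclear copies were found by aligning the 13 genes to annotated genes of GENCODE M21 with BLAST 2.17.0 (at least 90% identity over 100 bases) and sequences are from its transcripts on GRCm38. Pseudogenes carry GENCODE names.

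The members and the 13 gene lists were chosen with earlier results of these data known. Named were all 13 members, nuclear copies with at least 1 CPM in a library and, in each list, up to 3 genes with at least 5 CPM in 1 library and the largest mean absolute ratio; not all of the latter are printed. Of 246 list symbols, 245 were found. Continuous training groups were not analysed here.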

Additional observations from a re-analysis of the deposited data

Results flagged for a closer look

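mt-Cytb was marked because its direction was opposite between the pairs of libraries while all counting intervals left out 0: with training it had a log2 ratio of 0.24 in the vehicle pair (VI versus VS) and of −0.11 in the fibril pair (FI versus FS), and with fibrils one of 0.12 in the sedentary pair (FS versus VS) and of −0.22 in the trained pair (FI versus VI). These are the same 4 libraries read in both ways. mt-Nd5 was marked for fibrils, at 0.037 in the sedentary pair and −0.046 in the trained pair. With 1 pool per group neither difference was tested. The directions of both genes were the same under DESeq2 size factors, total counts, total counts without mitochondrial genes and total counts without the 10 most abundant nuclear genes.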

How the results depend on the processing

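No paired analysis was possible because each group has 1 library, whose number only names it. Leaving out a library leaves the additive model without residual degrees of freedom, so that gives no test. The other scalings of summed ribosomal and transfer RNA genes gave no value, since the table held 0 such rows. The median of the members in FI versus FS, 0.01, has no settled direction. It was −0.06 with total counts, with total counts without mitochondrial genes and with FPKM at a pseudocount of 1 or 0.1, and −0.062 with total counts without the 10 most abundant nuclear genes. It was −0.032 when the counts of each gene were added to those of its copy (an alternative chosen after seeing the data) and 0.048 as a ratio of summed counts. Over the 5 genes without a near-identical copy, the median was 0.24 in VI versus VS, 0.17 in FI versus FS, 0.00 in FS versus VS and −0.046 in FI versus VI. The median over all 12 members in FI versus VI, −0.19, was −0.22 with total counts, with total counts without mitochondrial genes and with FPKM at either pseudocount, and −0.13 as a ratio of summed counts. Among 192 ratios of single members under 4 scalings, 4 whose main counting interval left out 0 changed direction. mt-Co1 in FI versus FS was at −0.04 under total counts, −0.041 without mitochondrial genes and −0.043 without the 10 most abundant nuclear genes. mt-Nd4 in FS versus VS was at 0.024 without the 10 most abundant nuclear genes. Ratios whose main interval held 0 also crossed 0 for some members. With DESeq2 size factors, mt-Nd4 in FI versus FS went from −0.008 to 0.001 and mt-Nd4l in FS versus VS from 0.004 to −0.01. mt-Nd6 in FS versus VS, at 0.00, was at 0.024 with total counts. No scaling moved a ratio by more than 0.074. Genes beyond 2-fold in the vehicle, fibril, sedentary and trained pairs were 4030, 4177, 4567 and 4197 without a filter, 144, 203, 353 and 229 at 5 CPM, and 1418, 1647, 2140 and 1702 beyond 1.5-fold; 1 member, mt-Nd3, was beyond 1.5-fold, in FI versus VI. The additive model called 740 genes for training and 1519 for fibrils without a filter, and for training 241 with DESeq2 size factors and 276 with total counts. It called 0 members under each of the 6 alternatives. The direction of the nuclear subunit genes in FI versus FS also turned, from 45 of 61 higher to 28 of 61 under the 3 total-count scalings. Depth does not limit the 7 abundant members, with at least 11842 counts each, but the 31 to 42 counts of mt-Nd4l leave its ratios open from −0.99 to 1.11.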
